A study of Homo sapiens with 3 samples.

Results

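The 9 genes described here encode enzymes that make the pyrimidine and deoxyribonucleotide building blocks of DNA, or that keep wrong bases out of that pool: *TYMS*, *TK1*, *DTYMK*, *RRM1*, *RRM2*, *DUT*, *DCTPP1*, *UMPS* and *CTPS1*. They were chosen by name, and a probe was assigned to one of them when its RefSeq accession belonged to that gene. They make up 9 of 22439 genes with a RefSeq symbol on the array and 11 of its 58201 probes, with 1 probe for 7 of the genes and 2 probes for each of *DUT* and *CTPS1*.

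Gene expression was measured in A549, an established line from a human lung adenocarcinoma, on 3 Agilent arrays of 1 colour. The mock culture received only the reagent that carries the RNA, Lipofectamine RNAiMAX, and the others received it with *miR-139-5p* or *miR-139-3p*, the strands of one hairpin. The study's methods give 10 nM for miRNA precursors, and none of the 3 arrays is labelled as a control miRNA. The time between transfection and RNA extraction for the arrays is not given in the sources used here. Each condition had 1 array, so no difference has a replicate check, nothing was tested, and precision is limited by how few arrays there are. The arrays are called mock, 5p and 3p below and are given in that order. Slide 1, read in scan 1, held the mock and 5p arrays, and slide 2, read in scan 2, held the 3p array. For *miR-139-3p*, slide, scan and transfection therefore cannot be told apart.

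A cell that copies its DNA needs the 4 deoxynucleoside triphosphates in balanced amounts, and resting cells hold small pools of them. Ribonucleotide reductase turns ribonucleotides into deoxyribonucleotides, thymidylate synthase and thymidine kinase supply thymidine monophosphate by synthesis and by salvage, and other enzymes build uridine and cytidine nucleotides from the start or destroy unwanted triphosphates. Several of these genes are transcribed mainly in late G1 and S phase, and several enzymes are the targets of antimetabolite drugs.

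The transfected strands are shown because their seeds differ. Each mature sequence is from RefSeq (GRCh38.p14), written 5′ to 3′, with the seed, bases 2 to 8, in capitals. Both lie on the minus strand of chromosome 11, *miR-139-3p* at chr11:72615066-72615088 and *miR-139-5p* at chr11:72615102-72615124.
miR-139-3p: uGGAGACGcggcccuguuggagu
miR-139-5p: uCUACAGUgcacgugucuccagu
Both are 23 bases long, and each seed occurs in 1 of 2370 mature miRNA names in that table. Matches of these seeds in the transcripts of the 9 genes were not analysed here.

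The values below are spot signals after the scanner software had subtracted the background. A log2 fold change is the difference between 2 arrays in log2 signal, after each array had been scaled by its 75th percentile, which was 93.6 on the mock, 88.9 on the 5p and 81.0 on the 3p array. A gene was counted as lower or higher when its value was below -0.5, the study's threshold for lower genes, or above 0.5, its mirror image. For scale, the median SD between probes of one gene was 0.28 in the comparison of *miR-139-3p* with mock over 3684 genes and 0.15 in that of *miR-139-5p* with mock over 3743 genes, and the median SD between replicate spots of one probe was 0.05 to 0.06 within an array. Neither is a spread between cultures. Between 48.1% and 53.1% of spots were well above background, 0 spots were saturated, and all 11 probes of the 9 genes were well above background on every array.

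After *miR-139-3p* transfection most of the enzymes of DNA building block synthesis were lower. All 9 genes had values below 0, and 7 of 9 were below -0.5 (*DCTPP1*, *DTYMK*, *TK1*, *RRM2*, *CTPS1*, *UMPS* and *RRM1*), while *TYMS* and *DUT* were not. The median was -0.98. Among all 13551 protein-coding genes with a value, 30.5% were below -0.5 and 23.0% above 0.5, with a median of -0.13 that includes 879 bounds and of -0.15 over measured genes. Without scaling between the arrays these shares were 41.0% and 16.6%, and when the scaling used only probes that every array detected they were 24.5% and 27.8%. Bright genes as a whole were lower on the 3p array: among the 4615 protein-coding genes within the signal range of the 9 enzymes, 37.9% were below -0.5 and 10.2% above 0.5, with a median of -0.32. In RNA from a whole culture, fewer cells that express a gene and less of its RNA per cell cannot be told apart.

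In the cells given *miR-139-5p*, the only gene below -0.5 was *TK1*, 1 of 8 with a value, and 0 were above 0.5, with a median of -0.07. Among 13195 protein-coding genes 12.2% were below -0.5 and 10.6% above 0.5 (7.96% and 7.23% of the 4676 within the signal range of the enzymes), so a count of 1 in 8 is near that of all genes. *DTYMK* has no value here because its only spot on that array was marked as an outlier. Both comparisons use the same mock array, and the *miR-139-5p* comparison lies within 1 slide. In the order of the arrays, all 11 probes had their lowest scaled signal on the 3p array, with the outlier spot kept. Of these, 9 of 11 had their highest on the mock array. How many of all probes on the array share this order was not counted. On the 3p array the dimmer *DUT* probe differed by only -0.05 from 5p and -0.07 from mock, so its place can change with the scaling.

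**Figure D1:**
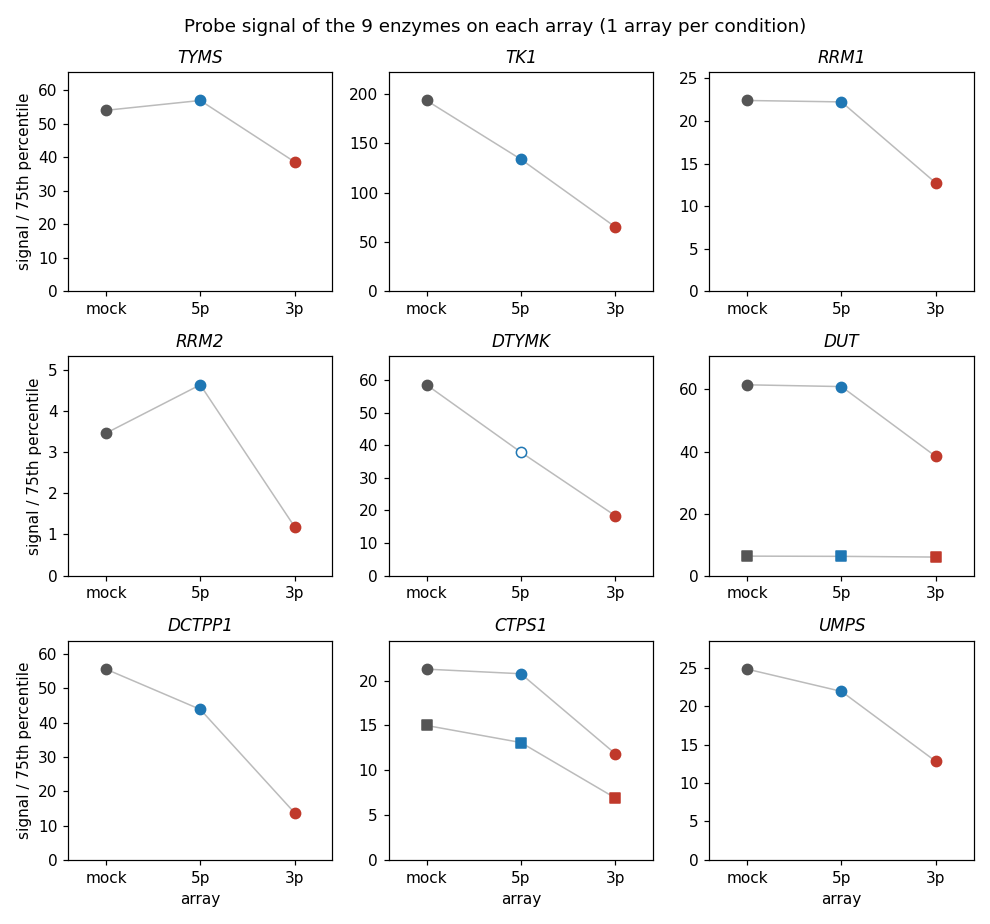
Spot signal divided by the 75th percentile of its array (vertical axes, linear and starting at 0) on the mock, miR-139-5p (5p) and miR-139-3p (3p) arrays, 1 panel per gene. Circles are the brighter or only probe, squares the dimmer probe of DUT and CTPS1, and the open circle is the DTYMK spot marked as an outlier; each point is 1 spot, and all 11 probes are lowest on the miR-139-3p array, the dimmer DUT probe by little.

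Of the enzymes that lead to thymidine diphosphate, *TK1* and *DTYMK* were below -0.5 with *miR-139-3p* and *TYMS* was not.
*TK1*, cytosolic thymidine kinase, which salvages thymidine and is made mainly in S phase, gave a signal of 18091 on the mock, 11892 on the 5p and 5283 on the 3p array. Its scaled level on the 3p array was 33.7% of mock (log2 fold change -1.57). On the 5p array it was 69.2% of mock (-0.53), just past the threshold.
*DTYMK*, thymidylate kinase, which phosphorylates the monophosphate from both routes, gave 5473 on the mock and 1487 on the 3p array, or 31.4% of mock (-1.67). The outlier spot on the 5p array read 3363. With that spot kept, the log2 fold change there was -0.63, between the mock and the 3p values.
*TYMS*, thymidylate synthase, which methylates deoxyuridine monophosphate and is the target of fluorouracil, gave 5052, 5061 and 3126 on the mock, 5p and 3p arrays. The mock and 5p signals were nearly equal (0.08), and the 3p level was 71.5% of mock (-0.48). That value lies just inside the threshold, and 31.3% of protein-coding genes had a lower one. Within the same arrays the log2 fold change of *TYMS* was higher, that is nearer to 0, than that of *DTYMK* by 1.19, a difference that no scaling of whole arrays can alter.

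Ribonucleotide reductase is built from a large catalytic subunit, encoded by *RRM1*, and a small subunit, encoded by *RRM2* in dividing cells or by *RRM2B*, a gene that p53 can induce. *RRM1* gave 2097 on the mock, 1977 on the 5p and 1030.3 on the 3p array, so that the scaled level was 99.3% of mock (-0.01) on the 5p array and 56.8% (-0.82) on the 3p array. *RRM2* gave 323, 412 and 95.8 on the same arrays. Its scaled level was 134% of mock (0.42) on the 5p array and 34.2% (-1.55) on the 3p array. The 3p minus 5p difference of -1.97 on the log2 scale was the widest among the 11 probes. The change of *RRM2* differed from that of *RRM1* by -0.73 with *miR-139-3p* and by 0.43 with *miR-139-5p*. The spot stood at the 85.0th percentile of all spots on the mock array and at the 76.6th on the 3p array. With another background correction (normexp on median spot signals), its value was -1.08.

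*RRM2B*, which is not among the 9, was higher with *miR-139-3p*. One of its probes gave 64.1 on the mock, 43.6 on the 5p and 241 on the 3p array, and the other gave 27.1, 17.5 and 84.7. Both were highest on the 3p array and lowest on the 5p array. The gene value was 1.99 (SD between probes 0.19, 2 probes) with *miR-139-3p* and -0.52 (SD 0.06, 2 probes) with *miR-139-5p*. Between *RRM2* and *RRM2B* the difference in change was -3.53 on the log2 scale after *miR-139-3p* but 0.94 after *miR-139-5p*. The values of the small-subunit genes had opposite signs in each comparison, and each gene's sign differed between the comparisons. The *RRM2* value of 0.42 with *miR-139-5p* did not pass the threshold. The rise of *RRM2B* was 1.11 with normexp.

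Deoxyuridine and modified cytidine triphosphates are removed by *DUT* and *DCTPP1*. *DCTPP1*, which hydrolyses deoxycytidine triphosphate and its modified forms, gave 5198 on the mock, 3896 on the 5p and 1109.8 on the 3p array. Its level with *miR-139-3p* was 24.7% of mock (-2.02, 4.05-fold lower), the lowest of the 9 genes, and 1.72% of protein-coding genes had a lower value. With *miR-139-5p* it was 78.9% of mock (-0.34), inside the threshold. *DUT*, which splits deoxyuridine triphosphate so that uracil stays out of DNA, was read by probes that disagreed. The brighter probe gave 5756, 5418 and 3111 on the mock, 5p and 3p arrays, and the dimmer one 586, 551 and 483. The first put *DUT* at -0.68 and the other at -0.07 with *miR-139-3p*, for a gene value of -0.37 (SD 0.43, 2 probes), while with *miR-139-5p* both were near 0 (gene value -0.01). *DUT* is therefore called lower by its brighter probe and not by the mean of both, and the files do not say which transcripts each probe reads.

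**Figure D2:**
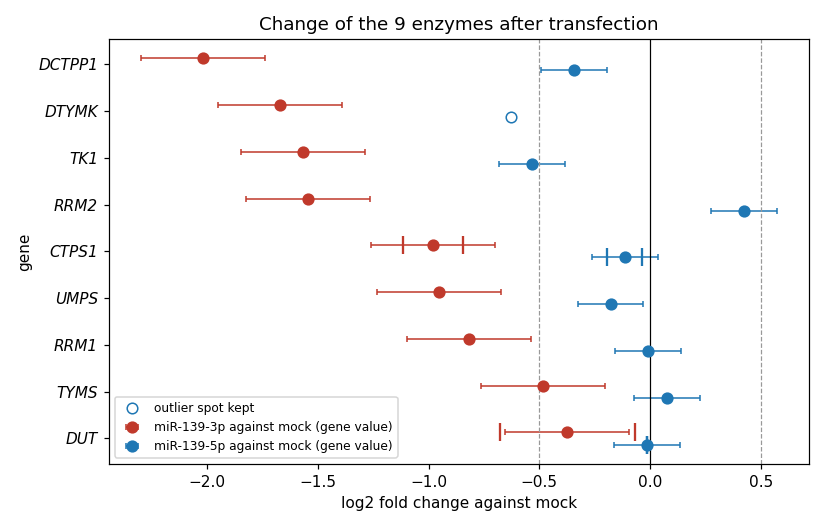
Log2 fold change against mock (horizontal axis) of each gene (vertical axis) with miR-139-3p (red) and miR-139-5p (blue). Filled points are gene values, vertical ticks the separate probes of CTPS1 and DUT, horizontal bars the median SD between probes of one gene over all genes (0.28 and 0.15, no spread between cultures), the open point DTYMK with its outlier spot kept, and dashed lines the threshold of 0.5 in either direction; the red points run from -2.02 for DCTPP1 to -0.37 for DUT and the blue ones from -0.53 for TK1 to 0.42 for RRM2.

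The last steps of pyrimidine synthesis from the start belong to *UMPS*, which makes uridine monophosphate, and *CTPS1*, which turns uridine into cytidine triphosphate and is the form used by proliferating lymphocytes. *UMPS* gave 2324 on the mock, 1951 on the 5p and 1039 on the 3p array, that is 88.3% (-0.18) and 51.7% (-0.95) of mock. For *CTPS1* one probe gave 1990.2, 1845 and 959 on these arrays and the other 1402, 1163 and 559. Both of its probes ranked the arrays in the same order. The gene value was -0.98 (SD 0.19, 2 probes) with *miR-139-3p* and -0.12 (SD 0.11, 2 probes) with *miR-139-5p*. *UMPS* and *CTPS1* were lower by nearly the same amount, with a difference of -0.03 with *miR-139-3p*.

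**Figure D3:**
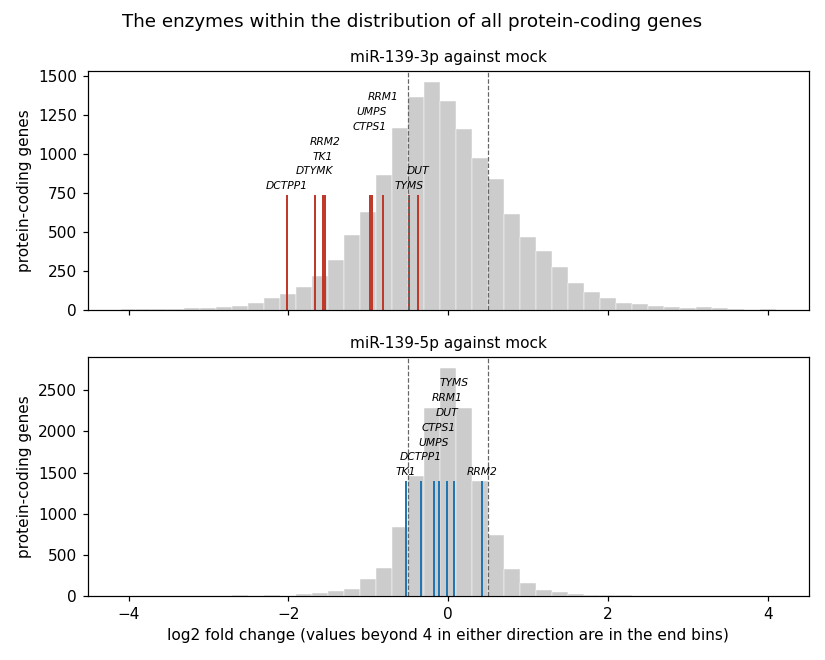
Number of protein-coding genes (vertical axis) in bins of log2 fold change (horizontal axis) for miR-139-3p against mock (top, 13551 genes) and miR-139-5p against mock (bottom, 13195 genes), in grey, with 1 coloured line for each enzyme and dashed lines at the threshold of 0.5 in either direction. With miR-139-3p the lines reach from the left tail (DCTPP1, -2.02) to near the middle (DUT, -0.37), and with miR-139-5p they lie around the middle.

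Beyond these enzymes, 60 genes of nucleotide metabolism in 7 lists were read in the same way. With *miR-139-3p*, 30 of the 58 with a value were below -0.5 and 6 above 0.5, with a median of -0.56, where 30.5% and 23.0% of protein-coding genes passed. The higher genes included *RRM2B*, *TYMP*, *MTHFD2L*, *AK1* and *SAMHD1* (0.59), the last named after its value was seen. With *miR-139-5p*, 12 of 59 were below -0.5 and 4 above 0.5, with a median of -0.17, where 12.2% and 10.6% of protein-coding genes passed. The same shares of all genes are the scale for the counts of each list below, and the lists are small.

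The rest of pyrimidine synthesis from the start, *CAD*, *DHODH* and *CTPS2*, had 2 of 3 genes below -0.5 with *miR-139-3p*. *CAD*, whose protein carries out the first steps, gave 1386 on the mock, 922 on the 5p and 637 on the 3p array (-0.52 and -0.91). *CTPS2*, the second cytidine triphosphate synthase, stood at -0.18, but its probes pointed in opposite directions at -0.89 and 0.53, so its direction is not settled. With *miR-139-5p*, 1 of 3 was below -0.5.

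Salvage of pyrimidines and deoxynucleosides had 6 of 8 genes below -0.5 and 0 above with *miR-139-3p*, with a median of -0.74. The lowest was *UCK2*, a uridine and cytidine kinase of proliferating cells, with 1731, 1635 and 565 on the mock, 5p and 3p arrays (-1.41 with *miR-139-3p*). The highest was *TK2*, the mitochondrial thymidine kinase, at -0.04, with signals of 47.5, 43.1 and 39.9. Between the cytosolic kinase *TK1* and *TK2* the difference in change was -1.52 with *miR-139-3p*, and it was -0.46 with *miR-139-5p*. With *miR-139-5p*, 2 of 8 salvage genes were below -0.5 and 0 above, from *UPRT* at -0.59 to *DGUOK* at 0.06.

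Other suppliers of deoxynucleotides, the kinases, the thioredoxin and glutaredoxin genes that feed the reductase, and *RRM2B*, had 2 of 8 below -0.5 and 1 of 8 above 0.5 with *miR-139-3p*, and their median of -0.11 was close to that of all genes. *RRM2B* was the highest and *GLRX2*, a glutaredoxin, the lowest at -0.70. With *miR-139-5p*, 2 of 8 were below -0.5, among them *DCTD*, deoxycytidylate deaminase, at -0.64, and *GLRX2* was the highest at 0.26.

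Folate and one-carbon enzymes, which supply the methyl group used by thymidylate synthase, had 6 of 8 genes below -0.5 and 2 above 0.5 with *miR-139-3p*. *SHMT1*, cytosolic serine hydroxymethyltransferase, was the lowest at -1.21 (SD 0.01, 2 probes) and *MTHFD2L*, a mitochondrial folate enzyme, the highest at 0.97 on a dim probe with 9.16, 13.4 and 15.5 on the mock, 5p and 3p arrays. With *miR-139-5p*, 1 of 9 was below -0.5 and 1 above 0.5, *SHMT1* at -0.51 and *MTHFD2L* at 0.62.

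Purine synthesis from the start had 9 of 12 genes below -0.5 and 0 above with *miR-139-3p*, with a median of -0.83. *IMPDH1*, inosine monophosphate dehydrogenase, which opens the branch to guanine nucleotides, gave 7235 on the mock, 7653 on the 5p and 1505 on the 3p array. Its value was -2.06, the lowest of the 60 genes. At the other end was *ADSS1*, an adenylosuccinate synthase on the branch to adenine nucleotides, at -0.01. Read by branch, a split made after the values were seen, *IMPDH1*, *IMPDH2* (-1.32) and *GMPS* (-0.72) on the guanine side were below -0.5 and *ADSS1* and *ADSS2* (-0.40) on the adenine side were not, but *ADSL*, which carries out the last step of the adenine branch and also an earlier step shared by both, was below it at -0.54. With *miR-139-5p*, 3 of 12 were below -0.5 and 1 above 0.5, from *ADSS1* at -1.54 to *PPAT*, the first committed enzyme, at 0.55.

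Purine salvage and the purine kinases had 1 of 9 genes below -0.5 and 1 above 0.5 with *miR-139-3p*. These were *PNP*, purine nucleoside phosphorylase, at -1.09, and *AK1*, an adenylate kinase, at 0.75 (SD 0.47, 2 probes). The brighter *AK1* probe, at 0.42, did not pass the threshold and the dimmer one, at 1.09, did. The list median was -0.13, close to that of all protein-coding genes (-0.15 over measured genes). With *miR-139-5p*, 1 of 9 was below -0.5 and 0 above, from *APRT* at -0.54 to *AK4* at 0.48.

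Nucleotide breakdown and pool cleaning had 4 of 10 genes below -0.5 and 2 above 0.5 with *miR-139-3p*, near the 30.5% and 23.0% of all protein-coding genes. *TYMP*, thymidine phosphorylase, which breaks thymidine down, was the highest at 1.78, with 14518 on the mock, 15136 on the 5p and 43141 on the 3p array. Its signal on the 3p array stood clear of the other arrays, which differed little. *NUDT18*, a hydrolase of oxidised nucleotides, was the lowest at -1.63. With *miR-139-5p*, 2 of 10 were below -0.5 and 2 above 0.5, from *NUDT18* at -0.88 to *DPYD*, which degrades uracil and thymine, at 1.03. The *DPYD* value rests on 1 dim probe with 25.4, 49.3 and 9.68 on the mock, 5p and 3p arrays. Its other probe was not well above background on any array.

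**Figure D4:**
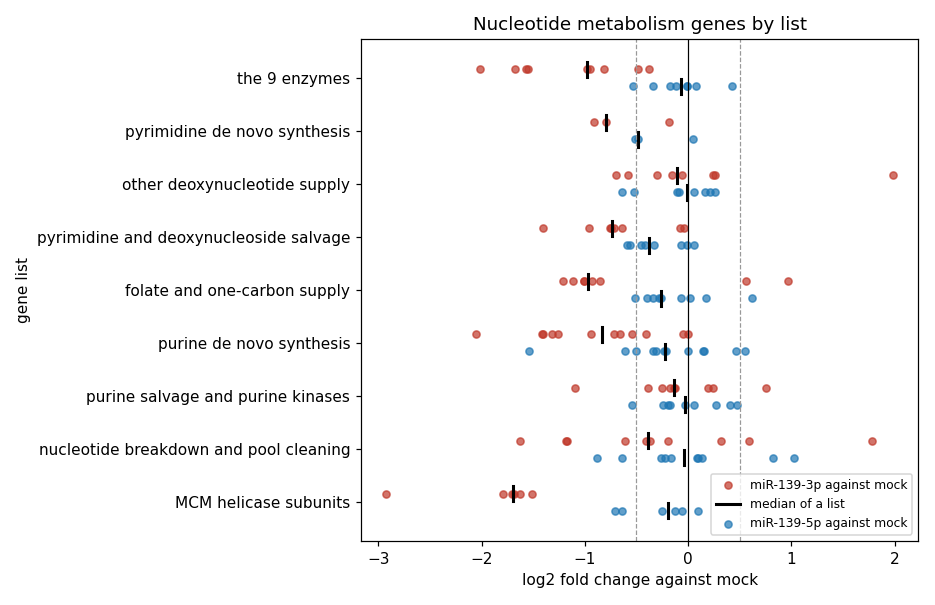
Log2 fold change against mock (horizontal axis) of the genes of each list (vertical axis), with miR-139-3p in red and miR-139-5p in blue; each point is 1 gene, black bars are list medians and dashed lines mark 0.5 in either direction. With miR-139-3p the medians run from -1.70 for the MCM helicase subunits to -0.11 for the other suppliers of deoxynucleotides, where RRM2B stands apart at 1.99.

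The 6 *MCM2* to *MCM7* genes, subunits of the replicative helicase that are transcribed with many S phase genes, were read for comparison. With *miR-139-3p*, 6 of 6 were below -0.5, from *MCM2* at -2.92 to *MCM6* at -1.51, with a median of -1.70, where 30.5% of protein-coding genes passed. The values of *DCTPP1*, *DTYMK*, *TK1* and *RRM2* lay in that span, and *TYMS*, *DUT*, *RRM1*, *CTPS1* and *UMPS* lay above it. With *miR-139-5p*, 2 of 6 were below -0.5, with a median of -0.19, where 12.2% passed.

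The promoters of the 9 genes were searched for 3 motifs of genes expressed in the cell cycle, in a window from 250 bases before to 50 bases after the transcription start of RefSeq (GRCh38.p14), on both strands. The E2F motif searched for was TTNNCGC with C or G at each N, and a match was in 2 of 9 windows and in 17.1% of 15841 protein-coding promoters. CCAAT, the letters bound by NF-Y, was in 3 of 9 and in 36.4%. The cell cycle homology motif (TTTGAA or TTCGAA) was in 3 of 9 and in 13.5%. An E2F match with G at both N can overlap CCAAT read on the other strand. These shares describe letters only, and *TK1*, *DUT*, *DCTPP1* and *CTPS1* held none of the 3 in this window.

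The windows that follow are shown because *TYMS* and *RRM1* held the E2F match and *RRM2* repeats CCAAT 3 times. Capitals mark the motif, and each line is 30 bases of the gene's own strand, which is plus for all 3 genes.
TYMS chr18:657603-657632: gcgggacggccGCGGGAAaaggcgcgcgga
RRM1 chr11:4094451-4094480: caagaaaaacgTTCCCGCcggttaggtttt
RRM2 chr2:10122605-10122634: gcaaggcgcagCCAATgggaagggtcggag
RRM2 chr2:10122635-10122664: gcatggcacagCCAATgggaagggccgggg
RRM2 chr2:10122662-10122691: gggcaccaaagCCAATgggaagggccggga
The E2F match of *TYMS* begins 39 bases before the start (-39) and that of *RRM1* at -223, while the CCAAT repeats of *RRM2* begin at -123, -93 and -66. *DTYMK* held CCAAT at -92 and -24. With *miR-139-3p*, the genes with an E2F or CCAAT match stood at -1.67 (*DTYMK*), -1.55 (*RRM2*), -0.82 (*RRM1*) and -0.48 (*TYMS*). *UMPS*, which held only the cell cycle homology motif, stood at -0.95. The genes with none of the 3 motifs ran from *DCTPP1* at -2.02 to *DUT* at -0.37. Any part of these motifs in the changes was not tested.

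Of 12311 other protein-coding genes, those whose pair of log2 fold changes over the 3 arrays lay nearest to the medians of the 9 enzymes were *C8orf82*, *EHD3*, *PLAAT2*, *RRP1B* and *H2AZ1*. They stood at -0.97 to -0.99 with *miR-139-3p* and at -0.05 to -0.08 with *miR-139-5p*, a distance of at most 0.016. *H2AZ1* encodes a histone variant.

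The cells carried the RNA of an epithelial line. Probes for all 7 epithelial and A549 genes (*KRT7*, *KRT8*, *KRT18*, *KRT19*, *CDH1*, *AKR1B10*, *AKR1C1*) were well above background on every array. With *miR-139-3p*, 5 of these 7 were below -0.5 (71.4%, median -0.74; *AKR1B10* -1.43, *KRT7* -1.10), a share near that of the enzymes (77.8%) and above the 30.5% of all protein-coding genes. With *miR-139-5p*, 4 of 7 (57.1%) were below -0.5, against 12.2% of all. Of 8 marker genes of other cell types, 4 on the mock, 3 on the 5p and 5 on the 3p array had such a probe. The summed highest signals of those 8 were 914, 1129 and 1289, of which *CD79A* gave 597, 802 and 1185 and *CD14* gave 292, 304 and 64.0. *PTPRC* (1.26), *CD79A* (1.20) and *VWF* (1.05) were above 0.5 with *miR-139-3p*, and *CD14* stood at -1.98. *PTPRC* and *VWF* were dim. The highest *PTPRC* probe gave 10.3, 10.2 and 20.1 on the mock, 5p and 3p arrays, and 2 of its 5 probes were well above background. The highest *VWF* probe gave 6.28, 5.06 and 11.2, with 1, 0 and 1 of its 2 probes well above background. *PECAM1*, *COL3A1* and *DCN* were not well above background on any array, and the highest probe of each gave 1.05 to 2.28. The part of these markers in the results was not tested.

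Among the ways of processing the arrays, those in which all 9 genes had a value kept all 9 below 0 with *miR-139-3p*, and *DCTPP1*, *DTYMK*, *TK1*, *RRM2*, *CTPS1*, *UMPS* and *RRM1* stayed below -0.5 wherever they had a value. *TYMS* ranged from -0.69 without scaling to -0.31 with quantile normalization, and was below -0.5 under 2 of 12 alternatives. *DUT* ranged from -0.68 to -0.14 and was below -0.5 under 3 of 12. In the *miR-139-5p* comparison *TK1* was below -0.5 under 11 of 12 alternatives (-0.41 with E1A spike-in scaling) and *RRM2B* under 7 of 12, and *RRM2* was above 0.5 under 1 of 12 (0.54 with E1A).

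**Figure D5:**
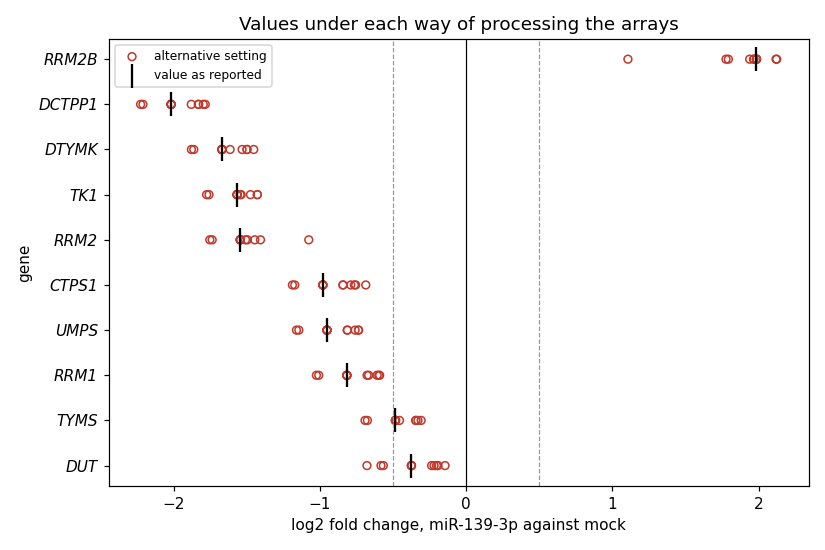
Log2 fold change of miR-139-3p against mock (horizontal axis) for the 9 enzymes and RRM2B (vertical axis). Black bars are the values as reported, open circles the values under each alternative way of processing, and dashed lines mark 0.5 in either direction; RRM1, the nearest to the threshold of the 7 lower genes, has its highest value at -0.59, while TYMS and DUT have circles on both sides of -0.5.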

How the data were processed

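Total RNA of A549 cells was labelled and measured on 3 Agilent 1-colour arrays, 1 per condition. Spot intensities were deposited by the authors as read, with background subtracted, by Agilent Feature Extraction 12.1.1.1 with no normalization between arrays, together with the median intensity of a spot and its local background. They also deposited log2 values per probe, which set against the scanner values were quantile-normalized log2 signals (Pearson r of 0.9988 or more across probes, median 2.21 in each column), and these were used as an alternative. The depth of an array is its signal over background: 49.9% (mock array), 48.1% (after *miR-139-5p*) and 53.1% (after *miR-139-3p*) of spots were well above background.

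Outlier spots (614, 935 and 1526 on these arrays) were left out, the log2 of the processed signal minus that of the array's 75th percentile was taken, and a gene's value was the mean difference over those of its probes that both arrays read well above background (in at least 50% of a probe's spots). A gene well above background on 1 array only was given as a bound. Probes were named through their RefSeq accessions (24751 of 25277 NM accessions matched). The probes were designed on hg19, so no probe coordinate is given. With 1 array per condition there was no test and no p-value, and the threshold of -0.5 for lower genes followed the study, with 0.5 set as its mirror image for higher genes.

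The named genes were the 9 members, the lowest and highest measured gene of each of the 7 wider lists and of the MCM list per comparison, bounds past the threshold (0 were found), *RRM2B*, *TK2*, *UCK2* and the 5 genes nearest in pattern; 1 further gene of the rule is not reported here. The members and lists were chosen with earlier results of these data known. Other genes are named as chosen after their values were seen.

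In all, 13 alternatives were tried, 1 of them, removal of a lowess trend on signal, added after the data were seen. These steps were run on data simulated from the mock array for *miR-139-3p* against mock, with 14949 genes. There 200 of 200 changed genes were recovered and 0 of 14749 unchanged genes passed the threshold. Every change put in was larger than the threshold and the added noise far smaller, so this outcome was set by design. It checks the computation only and gives no rate of false calls on the real arrays. Python 3.11.15 with numpy 2.4.6, pandas 2.3.3, matplotlib 3.10.9 and statsmodels 0.14.6 made the tables, and limma 3.58.1 in R 4.3.3 ran normexp with an offset of 50.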

Additional observations from a re-analysis of the deposited data

How the results depend on the processing

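No paired analysis was possible because each condition had 1 array. With *miR-139-3p*, the count of the 9 enzymes below -0.5 was 4 at a threshold of 1 in place of 0.5, where 12.9% of protein-coding genes were lower and 10.3% higher. The wider genes then had 14 lower and 2 higher, and normexp, run on median spot signals, gave 23 lower and 3 higher beside 17.2% and 10.1% of all genes. With *miR-139-5p*, E1A spike-in scaling gave 0 enzymes lower and 1 higher, and 4 wider genes lower and 7 higher, with the shares of all protein-coding genes at 8.02% lower and 16.1% higher. In that comparison 2 of 9 enzymes were lower with outlier spots kept (12.2% of all genes) and 2 of 9 with the deposited log2 values (10.9%), where *DTYMK* has a value, and 0 at a threshold of 1. The wider genes had 7 lower and 1 higher with normexp (3.99% and 3.47% of all genes), and 1 lower and 1 higher at a threshold of 1 (2.36% and 1.85%). Against mock, the median of the 9 enzymes ranged from -1.19 (no scaling) to -0.76 (trend removed) with *miR-139-3p*, and from -0.14 (no scaling) to 0.05 (E1A) with *miR-139-5p*. The median of all protein-coding genes measured moved from -0.15 to -0.36 without scaling, -0.35 with E1A, -0.02 with the percentile over detected probes and 0.05 with no filter on dim probes for *miR-139-3p*, and from 0.00 to 0.12 with E1A for *miR-139-5p*. *RRM2* stood at -1.08, *CTPS1* at -0.69 and *RRM2B* at 1.11 with normexp, and *DUT* at -0.68 by its brightest probe; *RRM2B* stood at -0.23 with normexp in the *miR-139-5p* comparison. The cause of these moves was not tested, other than fewer calls at a stricter threshold. With 1 spot for each of the 11 probes, the arrays set no error for these genes beyond that between spots and probes.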
